A study of Mus musculus with 18 samples.

Results

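The genes described here are 10 markers of the crypt base, namely Ascl2, Sox9, Msi1, Cdca7, Smoc2, Rgmb, Tnfrsf19, Cd44, Prom1 and Slc12a2. They were chosen by symbol and are 10 of the 43346 genes in the deposited count table, and all 10 were among the 26717 genes tested. RNA had been sequenced from EPCAM-positive Lgr5+ cells of small intestine (SI) and large intestine (LI) crypts, sorted by their Lgr5-GFP level. Cells with high, medium and low GFP stand for the centre, the border and row >3 of the crypt, respectively. This gave 6 groups of 3 biological replicates, or 18 libraries. All mice were untreated C57BL/6 animals of 8 to 20 weeks with the genotype Lgr5_eGFP_Iris_creERT2. In this knock-in the Lgr5 locus drives GFP, which is expressed in patches, so that cells of GFP-negative crypts were not sampled. The sources used here do not give the SI segment, nor which mouse a replicate number stands for.

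Intestinal stem cells sit at the crypt base, where Wnt and R-spondin signals keep a stem cell programme active. Cells that move up the crypt lose this programme and take up an absorptive or secretory fate. Ascl2 and Sox9 are transcription factors, of which Ascl2 is needed to keep Lgr5+ stem cells and Sox9 is also found in Paneth cells. Msi1 encodes an RNA-binding protein of stem and progenitor cells, and Cdca7 a nuclear protein linked to chromatin remodelling. Smoc2 is a secreted matrix protein, and Rgmb is a co-receptor for bone morphogenetic proteins. Tnfrsf19, also called Troy, is a receptor found on stem cells, and Cd44 is the hyaluronan receptor and a Wnt target. Prom1, or CD133, is a membrane protein of cell protrusions. Slc12a2, or NKCC1, is the sodium, potassium and chloride cotransporter that feeds fluid secretion.

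All 10 genes are protein coding, with positions, except that of Slc12a2, given here in mm10 (GRCm38) from GENCODE release M21. Ascl2 lies at chr7:142966829-142969264 on the minus strand, and Sox9 at chr11:112782224-112787760 on the plus strand. Msi1 lies at chr5:115429599-115455698, Cdca7 at chr2:72476159-72486893 and Smoc2 at chr17:14279506-14404790, all on the plus strand. Rgmb lies at chr17:15803188-15831039 and Tnfrsf19 at chr14:60963875-61046490, both on the minus strand. Cd44 at chr2:102811141-102901665 and Prom1 at chr5:43993620-44102032 are also on the minus strand, and Slc12a2 is on the plus strand. Exons of Prom1 share 424 bases with the antisense gene Gm16401, whose highest group mean was 2.24 CPM, that is, counts scaled to a common library total with TMM factors. The sources used here do not give the strand setting of the counting.

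Promoter windows, from 250 bases before to 50 bases after a transcription start, were available from RefSeq (GRCm38.p6) for 6 of the 10 genes, with 10 windows in all. Windows of the chromosome of Slc12a2 were left out, here and among all windows, so its promoter was not searched. They were searched on both strands for CTTTGAT, the core of the site bound by the Wnt effectors TCF and LEF, for CTTTG, which is contained in it, and for CAGCTG, an E-box. The first was found in 1 of the 10 windows, against 3.73% of 32851 windows of this length. CTTTG was found in 4 of the 10 against 53.9%, and CAGCTG in 1 of the 10 against 16.3%. The window of Ascl2 is shown because Ascl2 had the larger fall among the transcription factors, and that of the second listed start of Tnfrsf19 because it held the CTTTGAT match. They lie at chr7:142969215-142969514 and chr14:61037938-61038237, both on the minus strand, and are written 5′ to 3′ on that strand. Capitals mark only this match, which reads CTTTGAT on the opposite strand. The CAGCTG match lies in the same Tnfrsf19 window and is left in lower case. The Ascl2 window held no match to any of the searched motifs, which says only that these letters were not found there.
Ascl2: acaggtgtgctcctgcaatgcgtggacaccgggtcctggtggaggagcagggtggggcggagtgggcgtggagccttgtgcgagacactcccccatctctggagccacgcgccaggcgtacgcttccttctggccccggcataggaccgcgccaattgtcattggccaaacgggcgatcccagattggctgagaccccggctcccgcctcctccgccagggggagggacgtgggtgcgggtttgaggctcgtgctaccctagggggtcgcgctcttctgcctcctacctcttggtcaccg
Tnfrsf19: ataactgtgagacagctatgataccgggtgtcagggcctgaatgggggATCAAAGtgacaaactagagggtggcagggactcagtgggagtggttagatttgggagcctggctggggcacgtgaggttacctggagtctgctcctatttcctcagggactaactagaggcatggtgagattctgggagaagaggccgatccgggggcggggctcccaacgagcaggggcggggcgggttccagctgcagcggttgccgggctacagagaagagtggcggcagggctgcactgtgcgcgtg

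Total counts per library were 8312093 to 31940965. The summed level of 5 epithelial markers was 2716 to 6763 CPM, while 6 immune markers summed to at most 34.4 CPM and 6 stromal and endothelial markers to at most 17.4 CPM. Lgr5 itself, the gene of the sort, had 5252, 4191 and 2434 normalised counts in SI centre, 1610.3, 2028 and 157 in SI border and 169.6, 279.6 and 28.1 in SI row >3 libraries, in the order of replicates 1, 2 and 3 used throughout. In the LI it had 2575, 2327 and 2176 in centre, 1676, 1492 and 1184 in border and 134, 466 and 262 in row >3 libraries. The order of the sort was thus present in every replicate. Y-linked genes had 542 to 1419 counts in the libraries of replicate 2 and at most 1 in all others, so the sex of the mice goes with the replicate number.

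The SI libraries of replicate 3 stood apart. The LI marker Car1 had 1789 counts in their centre, 21670 in their border and 24971 in their row >3 library, against at most 272 in the other SI libraries and 2124 to 28086 in the LI. Aqp8, another LI marker, had 61, 615 and 750 counts in them, against at most 4 in the other SI libraries and 40 to 349 in the LI. Hoxb13 and Hoxd13 were at 2 counts or fewer in all 18 libraries. The SI marker Gata4 had 151, 141 and 83 counts in the replicate 3 libraries, 93 to 444 in the other SI libraries and at most 1 in the LI. Of the 10 crypt base markers, 8 in centre cells, 8 in border cells and 7 in row >3 cells were at their lowest in replicate 3 of the SI, compared with 2, 4 and 0 in replicate 3 of the LI. The calls, the marker lists of other cell types and the order of levels between genes are therefore also given without these libraries, the last 2 chosen after the data had been seen.

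**Figure D1:**
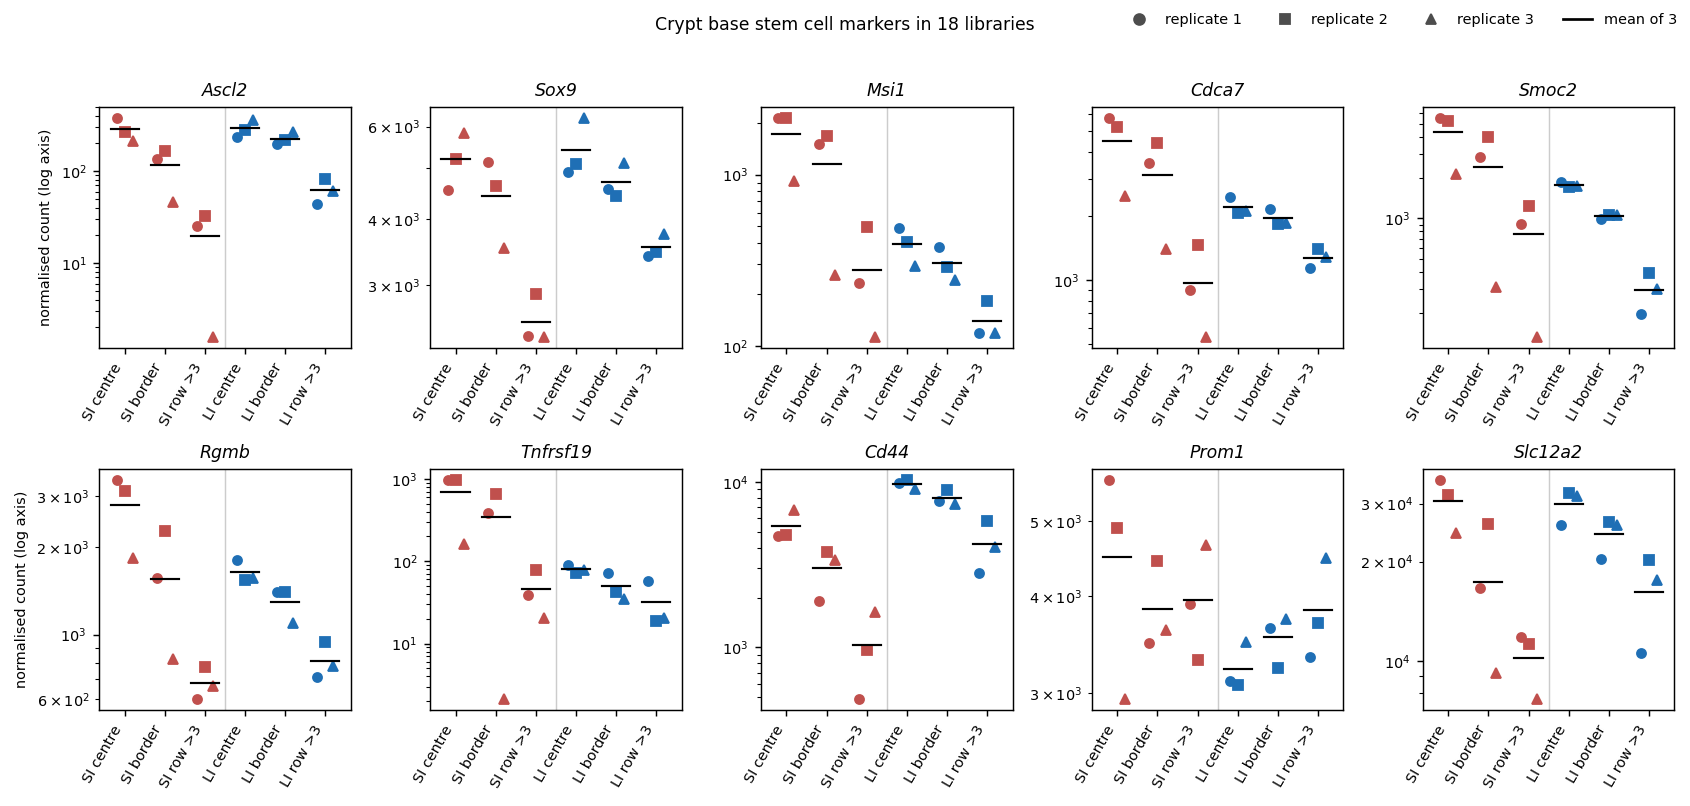
Normalised read counts (log axis) of the 10 markers in each of the 18 libraries by group, with the SI in red, the LI in blue, 1 symbol shape per replicate number and a bar at the mean of 3. Ascl2 spans from 1.56 in an SI row >3 library to 380.0 in an SI centre library and Prom1 only from 2946 to 5646, and SI replicate 3 lies low for most genes.

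From centre to row >3 of SI crypts, 8 of the 10 markers fell, with log2 fold changes from -1.02 (Sox9) to -3.84 (Tnfrsf19) (edgeR quasi-likelihood test, Benjamini-Hochberg adjusted p under 0.05). Of all genes tested, 5.82% were called lower in this comparison. The median log2 fold change was -2.30 over the 10 markers and 0 over all genes. Smoc2 and Prom1 were not called. In 9 markers, all but Prom1, no row >3 library reached the lowest centre library, as in 12.1% of all genes. With the replicate number as a block 9 markers were called, against 22.8% of all genes in either direction, and without SI replicate 3 all 10 were called, against 17.1%.

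In the LI, none of the 10 markers was called between centre and row >3 by edgeR, against 0.0187% of all genes called lower. An unadjusted p under 0.05 was reached by 7 markers and 6.96% of all genes, and DESeq2 called 2, Ascl2 and Sox9, against 0.349% of all genes in either direction. The median log2 fold change was -1.10 over the 10 markers and 0 over all genes, with single values from -2.57 (Smoc2) to 0.26 (Prom1). The libraries did not overlap in 9 markers, again all but Prom1, as in 7.18% of all genes in this direction. With the replicate number as a block 8 markers were called, all but Tnfrsf19 and Prom1, against 2.59% of all genes in either direction. In the fit without SI replicate 3, in which the standard errors were smaller, 6 were called in the LI, against 1.90% of all genes. In these bulk samples, fewer cells that express a marker and less RNA per cell cannot be told apart.

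**Figure D2:**
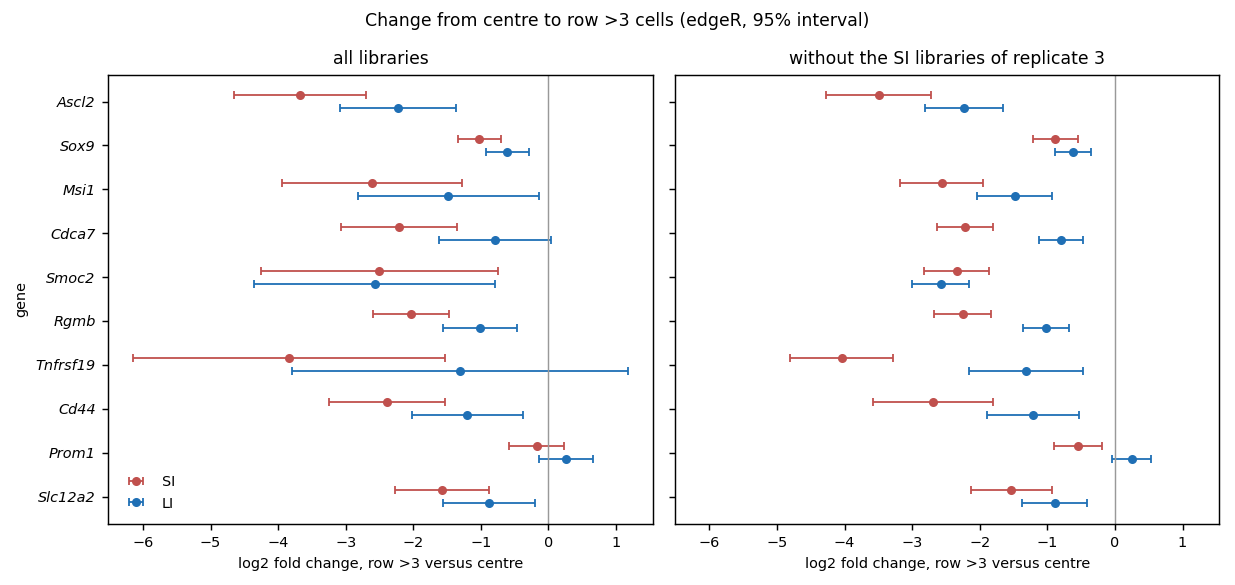
Log2 fold change of row >3 against centre cells for each marker in the SI and the LI with 95% intervals from edgeR, in all libraries (left) and without the SI libraries of replicate 3 (right). All markers but Prom1 lie below 0 at both sites, and the interval of Smoc2 in the SI, -4.26 to -0.75 on the left, is narrower on the right.

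Ascl2 had the steepest course among the transcription factors. It had 380.0, 269 and 212 normalised counts in SI centre, 137, 166 and 46.3 in SI border and 25.3, 32.4 and 1.56 in SI row >3 libraries, the last from a raw count of 1. The 3 SI levels did not overlap, and row >3 libraries of replicates 1, 2 and 3 were at 6.66, 12.04 and 0.737% of the centre library of the same number. The log2 fold change of row >3 against centre was -3.68 ± 0.47 (SE, n = 3 per group, edgeR adjusted p = 5.01e-05). In the LI, Ascl2 had 234, 282 and 359.9 normalised counts in centre, 198, 217 and 263 in border and 43.7, 82.0 and 60.4 in row >3 libraries. Centre and border overlapped there, while row >3 lay below both, at 16.8 to 29.1% of the centre library of the same number. The LI log2 fold change was -2.22 ± 0.41 (edgeR adjusted p = 0.0694, 0.000392 with the block, and 0.000101 to 0.652 over 14 alternative settings).

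Sox9 moved least among the markers that were called. It had 4558, 5205 and 5842 normalised counts in SI centre, 5140.3, 4621 and 3526 in SI border and 2399, 2881 and 2388 in SI row >3 libraries. Centre and border overlapped, and row >3 libraries kept 40.9 to 55.4% of the centre level of the same number, a log2 fold change of -1.02 ± 0.15 (edgeR adjusted p = 0.000155). In the LI, Sox9 had 4921, 5086 and 6238 normalised counts in centre, 4568, 4425 and 5121 in border and 3411, 3470.3 and 3753 in row >3 libraries. LI row >3 libraries kept 60.2 to 69.3% of the centre level, with a log2 fold change of -0.61 ± 0.15 (edgeR adjusted p = 0.269, 0.0105 with the block, and 0.0105 to 1 over 14 settings).

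Msi1, the RNA-binding protein, had 3 separate centre, border and row >3 ranges at neither site. It had 2149.8, 2138 and 923 normalised counts in SI centre, 1521, 1673 and 261 in SI border and 232, 494 and 112 in SI row >3 libraries. The border library of replicate 3 lay within the range of the row >3 libraries. The log2 fold change of row >3 against centre was -2.61 ± 0.62 (edgeR adjusted p = 0.0129). The call was lost without replicate 1 or replicate 3 of SI row >3 cells, and adjusted p ranged from 1.44e-06 to 0.0760 over 14 settings. In the LI, Msi1 had 490.5, 405 and 294 normalised counts in centre, 381, 288 and 243 in border and 118, 182 and 119.8 in row >3 libraries. The LI row >3 libraries lay below all others of that site, with a log2 fold change of -1.48 ± 0.62 (edgeR adjusted p = 0.659, 0.0128 with the block, and 0.00477 to 1 over 14 settings).

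Cdca7 had 5789, 5246 and 2485 normalised counts in SI centre, 3554, 4430.1 and 1400.2 in SI border and 903, 1463 and 540.1 in SI row >3 libraries. The row >3 libraries kept 15.6 to 27.9% of the centre level of the same number, and the log2 fold change was -2.21 ± 0.40 (edgeR adjusted p = 0.00208). In the LI its normalised counts were 2456, 2064 and 2124 in centre, 2172, 1830.3 and 1860.3 in border and 1137, 1400.0 and 1284 in row >3 libraries. There row >3 cells kept 46.3 to 67.8% of the centre level, with a log2 fold change of -0.79 ± 0.39 (edgeR adjusted p = 0.738, 0.00495 with the block, and 0.00495 to 1 over 14 settings). The share of the centre level kept in the LI thus did not overlap with that in the SI, while the row >3 counts themselves did. This was not particular to Cdca7. The kept share was also higher in the LI without overlap for Ascl2, Sox9, Msi1, Rgmb, Tnfrsf19, Cd44 and Slc12a2. It overlapped for Smoc2 and Prom1. How many of all genes do so was not counted.

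Smoc2, the secreted matrix protein, spread widely between SI replicates and, in centre and border cells, little between LI replicates. It had 5570.1, 5302 and 2145 normalised counts in SI centre, 2852, 4043 and 308 in SI border and 908, 1238 and 131 in SI row >3 libraries. Replicate 3 was the lowest at every SI level. The log2 fold change of row >3 against centre was -2.50 ± 0.81 in all libraries (edgeR adjusted p = 0.0625, and 2.37e-07 to 0.207 over 14 settings). It was -2.34 ± 0.23 without SI replicate 3, where the lowest of these p-values was reached. In the LI, Smoc2 had 1872, 1721 and 1723 normalised counts in centre, 984, 1059 and 1057 in border and 196, 393 and 297 in row >3 libraries. The 3 LI levels were clear of each other, with a log2 fold change of row >3 against centre of -2.57 ± 0.82 (edgeR adjusted p = 0.529, 0.0152 with the block, and 3.54e-07 to 1 over 14 settings).

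Rgmb, the co-receptor, had 3415, 3139 and 1838 normalised counts in SI centre, 1565, 2277 and 825 in SI border and 597, 772 and 665 in SI row >3 libraries. Its row >3 libraries were close to each other, replicate 3 included, and the log2 fold change against centre was -2.04 ± 0.27 (edgeR adjusted p = 7.34e-05). In the LI it had 1813, 1546 and 1565 normalised counts in centre, 1401, 1399.9 and 1098 in border and 712, 939.9 and 782 in row >3 libraries. As for Smoc2, the 3 LI levels did not overlap. The LI log2 fold change was -1.01 ± 0.26 (edgeR adjusted p = 0.315, 0.00722 with the block, and 0.00141 to 1 over 14 settings).

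Tnfrsf19 had 959, 967 and 161 normalised counts in SI centre, 383, 644 and 2.10 in SI border and 39.0, 79.0 and 20.3 in SI row >3 libraries. The border library of replicate 3 lay below all 6 row >3 libraries of both sites. The log2 fold change of row >3 against centre was -3.84 ± 1.06 (edgeR adjusted p = 0.0311) and -4.04 ± 0.37 without SI replicate 3. The call was lost without replicate 1 or 2 of SI centre and without any 1 replicate of SI row >3 cells, and adjusted p ranged from 4.77e-08 to 0.130 over 14 settings. In the LI, Tnfrsf19 was low, with 89.4, 71.4 and 78.5 normalised counts in centre, 72.5, 42.4 and 35.0 in border and 57.4, 19.0 and 20.7 in row >3 libraries. Border and row >3 overlapped there, and the log2 fold change of row >3 against centre was -1.31 ± 1.14 (edgeR adjusted p = 0.969, 0.221 with the block, and 0.106 to 1 over 14 settings).

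Cd44, the hyaluronan receptor, had no SI library that reached the LI range at the same level. It had 4676, 4753 and 6741 normalised counts in SI centre, 1910.2, 3765 and 3359 in SI border and 485, 969.9 and 1638 in SI row >3 libraries. The 3 SI levels did not overlap, and replicate 3 was the highest of the centre and row >3 libraries, unlike for most other markers. The log2 fold change of row >3 against centre was -2.39 ± 0.40 (edgeR adjusted p = 0.00127). In the LI, Cd44 had 9863, 10256 and 9069 normalised counts in centre, 7626, 8857 and 7360.1 in border and 2798, 5761 and 4054 in row >3 libraries. Again the levels did not overlap, and the log2 fold change was -1.20 ± 0.38 (edgeR adjusted p = 0.505, 0.0263 with the block, and 0.0191 to 1 over 14 settings).

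Prom1 did not follow the sort in all libraries together. It had 5646, 4890.0 and 2946 normalised counts in SI centre, 3483, 4446 and 3621 in SI border and 3906, 3307 and 4650.4 in SI row >3 libraries. In replicates 1 and 2 the row >3 libraries were at 69.2 and 67.6% of the centre level, and in replicate 3 at 158%. The log2 fold change of row >3 against centre was -0.18 ± 0.19 in all libraries (edgeR adjusted p = 0.702, interval -0.58 to 0.22) and -0.54 ± 0.17 without SI replicate 3 (adjusted p = 0.0309, the lowest of 14 settings, of which the highest gave 1). In the LI, Prom1 had 3112, 3071 and 3488 normalised counts in centre, 3645, 3238 and 3741 in border and 3340.4, 3696 and 4478 in row >3 libraries. Each LI row >3 library was at 107 to 128% of the centre library of its number, with a log2 fold change of 0.26 ± 0.19 (edgeR adjusted p = 0.924, interval -0.15 to 0.66).

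Slc12a2, the cotransporter, had the highest mean level per kilobase of the markers in all 6 groups. It overlapped with Sox9 in SI border cells. It had 35367, 31771 and 24442 normalised counts in SI centre, 16689, 26043 and 9166 in SI border and 11797, 11258 and 7641 in SI row >3 libraries. The share kept in row >3 cells was nearly the same in each replicate, 31.3 to 35.4% of the centre level, and the log2 fold change was -1.57 ± 0.32 (edgeR adjusted p = 0.00477). In the LI it had 25822, 32267 and 31659.7 normalised counts in centre, 20345, 26359 and 25882 in border and 10597, 20253 and 17637 in row >3 libraries. The LI row >3 libraries kept 41.0 to 62.8% of the centre level, with a log2 fold change of -0.88 ± 0.32 (edgeR adjusted p = 0.575, 0.0184 with the block, and 0.0184 to 1 over 14 settings).

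From centre to border of the SI none of the 10 markers was called by edgeR, as for 0% of all genes called lower, while 4 markers and 8.98% of all genes had an unadjusted p under 0.05. DESeq2 called none of them, against 0.785% of all genes. All 10 log2 fold changes were below 0, with a median of -0.84 against 0 over all genes. Only Ascl2 (-1.35 ± 0.41) and Cd44 (-0.84 ± 0.38) had border libraries that were all below the centre libraries, as 4.60% of all genes did. With the block, Ascl2, Cdca7, Rgmb and Slc12a2 were called, against 2.32% of all genes in either direction. Without SI replicate 3 none of the 10 was called, against 0.963% of all genes, and their median log2 fold change was -0.68. In the LI none was called by edgeR, as for 0% of all genes, none had an unadjusted p under 0.05, against 1.38% of all genes, and DESeq2 called none, as for 0% of all genes. Smoc2, Rgmb and Cd44 did not overlap between LI centre and border, as 2.71% of all genes did in this direction, and the median log2 fold change was -0.32, with 0 over all genes.

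From border to row >3 of the SI, Ascl2 fell by 2.32 ± 0.50, Sox9 by 0.78 ± 0.15 and Rgmb by 1.18 ± 0.27 on the log2 scale (edgeR adjusted p = 0.0205, 0.0145 and 0.0288), and 0.764% of all genes were called lower. These 3 calls were lost without replicate 1 or 2 of SI border or without replicate 1 of SI row >3 cells, which each left 0 markers called. In that order, 0.563, 0.0188 and 0.0113% of all genes were called in either direction. Without replicate 3 of SI border cells 7 markers were called, against 5.71% of all genes in either direction. With the block 9 markers were called, against 9.78% of all genes in either direction, and without SI replicate 3 there were 8, against 7.23%. The median log2 fold change in the SI was -1.59, with 0 over all genes, and Ascl2, Sox9, Rgmb and Cd44 did not overlap, as 5.11% of all genes. In the LI no marker was called by edgeR, as for 0% of all genes, while 5 markers and 3.72% of all genes had an unadjusted p under 0.05 and DESeq2 called none, as for 0% of all genes. There 8 markers, all but Tnfrsf19 and Prom1, did not overlap, as 5.40% of all genes, and the block called Ascl2 (-1.85, adjusted p = 0.0277, and 0.0143 to 1 over 14 settings), with 0.0674% of all genes called.

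Markers of other cell types were compared along the same axis. Of the 26717 genes tested, 1964 were called higher and 1554 lower in SI row >3 than in SI centre cells. Without SI replicate 3 these were 2610 and 1855 of 26181. In the LI 0 were called higher and 5 lower, or 257 and 240 without SI replicate 3. From SI centre to border 3 were called higher and 0 lower, or 237 and 15 without it. From SI border to row >3 these were 225 and 204, or 1222 and 670 without it. In the SI, 7 goblet cell genes summed to 674 to 10030 CPM in centre and 31084 to 50710 CPM in row >3 libraries, and 6 of the 7 were called higher and 1 lower. The 10030 CPM belong to replicate 3, and the centre sums of replicates 1 and 2 were 674 and 1148 CPM, with the same numbers of calls without replicate 3. In the LI the sums were 6733 to 10690 CPM in centre and 14917 to 23459 CPM in row >3 libraries, and none of the 7 was called. Of 8 absorptive cell genes 4 were called higher in SI row >3 cells, with sums of 243 to 393 CPM in centre and 752 to 1966 CPM in row >3 libraries, and none in the LI. Of 8 genes of cycling cells 5 were called lower in SI row >3 cells, with sums of 2191 to 3137 CPM in centre and 839 to 2198 CPM in row >3 libraries. Without SI replicate 3 the sums of the cycling cell genes were 2990.4 to 3137 CPM in centre and 1422 to 2198 CPM in row >3 libraries, with 6 called lower in the SI and 1 in the LI, and 1 goblet cell gene was called lower in the LI. In all libraries of the LI none of the cycling cell genes was called, with sums of 2422 to 2898 CPM in centre and 1719 to 2346 CPM in row >3 libraries. Of 6 tuft cell genes 2 were called higher in SI row >3 cells in all libraries and all 6 without SI replicate 3. Their sums were 31.0 to 37.4 CPM in SI centre and 362 to 398 CPM in SI row >3 libraries of replicates 1 and 2, while replicate 3 had 389 CPM in centre and 92.3 CPM in row >3 cells. In the LI none of the tuft cell genes was called. Of 8 enteroendocrine genes 1 was called higher in SI row >3 cells, or 2 without SI replicate 3, and of the 5 epithelial genes 3, or 4 without it. Of 7 Paneth cell genes 1 was called higher in the SI without replicate 3 and none with it. The same held for 1 of 6 immune and 1 of 6 stromal and endothelial genes. Between SI centre and border, the genes of these lists that were called in all libraries came to 1, an absorptive one. Without SI replicate 3, 6 of 6 tuft, 3 of 7 goblet, 2 of 5 epithelial, 1 of 8 absorptive and 1 of 6 immune genes were called higher in SI border cells. Tuft sums were 292 to 907 CPM and goblet sums 4117 to 8493 CPM there. Between SI border and row >3, 5 goblet genes were called higher and 1 lower without SI replicate 3, against none with it, and 3 cycling cell genes were called lower, against 1 with it. The part of these cells in the change of the crypt base markers was not tested.

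Between the sites, 5 markers were higher in every SI centre library than in any LI centre library, namely Msi1, Cdca7, Smoc2, Rgmb and Tnfrsf19, as 9.59% of all genes were. Cd44 was lower in each, as 8.65% of all genes. None of the 10 was called by edgeR, against 1.99% of all genes in either direction, while 6 markers and 14.5% of all genes had an unadjusted p under 0.05 and DESeq2 called Msi1 and Tnfrsf19, against 4.66% of all genes. Msi1 differed by 2.08 ± 0.60 on the log2 scale (edgeR adjusted p = 0.107, 0.00990 with the block, where 5.61% of all genes were called, and 8.23e-07 to 0.358 over 14 settings). In the comparisons between the sites, at all 3 levels, the block joined SI and LI libraries of the same number, a pairing that is uncertain. Tnfrsf19 differed by 3.07 ± 1.01 (edgeR adjusted p = 0.158, and 1.12e-08 to 0.423 over 14 settings). Its SI centre libraries of replicates 1 and 2 were nearly equal, at 12.03 and 12.12 times the LI mean, and that of replicate 3 was at 2.02 times. Without SI replicate 3, Msi1, Cdca7, Smoc2, Rgmb, Tnfrsf19 and Prom1 were called higher in SI centre cells, against 10.9% of all genes in either direction. The centre levels of Ascl2, Sox9 and Slc12a2 differed by -0.09 ± 0.37, -0.12 ± 0.15 and -0.03 ± 0.31 between the sites, with intervals of -0.87 to 0.69, -0.43 to 0.20 and -0.71 to 0.64.

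In border cells no marker was called between the sites by edgeR, against 1.75% of all genes in either direction, while 4 markers and 13.9% of all genes had an unadjusted p under 0.05 and DESeq2 called Msi1 and Cd44, against 4.55% of all genes. The border libraries of Ascl2 and Cd44 were all lower in the SI, as 7.62% of all genes. Cd44 differed by -1.45 ± 0.38 (edgeR adjusted p = 0.0782, 0.0114 with the block, where 4.27% of all genes were called, and 0.00280 to 0.244 over 14 settings). Msi1 differed by 1.84 ± 0.61 in all libraries and by 2.36 ± 0.26 without SI replicate 3 (edgeR adjusted p = 0.174 and 2.67e-06, and up to 0.452 over 14 settings). Without these libraries, Cdca7, Smoc2, Tnfrsf19 and Cd44 were called as well, against 8.10% of all genes in either direction. For Msi1, the border library of SI replicate 3 was at 0.859 times the LI mean, while those of replicates 1 and 2 were above all LI border libraries.

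In row >3 cells Cd44 was lower in the SI than in the LI, by -2.09 ± 0.39 (edgeR adjusted p = 0.00744, and 5.30e-07 to 0.149 over 14 settings, of which 13 called it). It was the only marker called, against 1.32% of all genes called lower. The SI libraries were at 0.115, 0.231 and 0.389 times the LI mean of Cd44. Ascl2 and Sox9 also had no SI row >3 library within the LI range, and differed by -1.54 ± 0.50 and -0.53 ± 0.15 (edgeR adjusted p = 0.0931 and 0.0541, with 0.0262 to 0.364 and 0.0306 to 0.321 over 14 settings). Libraries did not overlap in this direction for 7.34% of all genes. With the block, Sox9 and Cd44 were called, against 6.89% of all genes in either direction, and DESeq2 called Ascl2, Sox9 and Cd44, against 6.36%. Without SI replicate 3, Msi1, Smoc2 and Cd44 were called, against 12.2% of all genes in either direction.

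**Figure D3:**
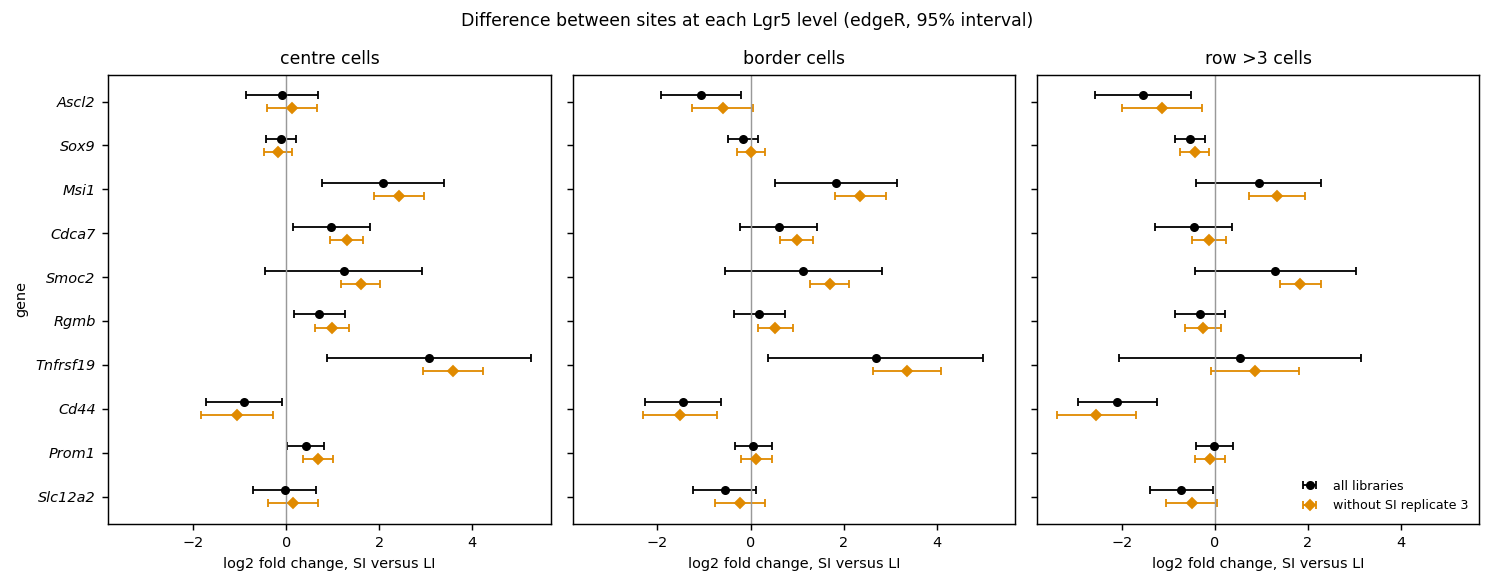
Log2 fold change of SI against LI for each marker in centre, border and row >3 cells with 95% intervals from edgeR, in black for all libraries and in orange without the SI libraries of replicate 3. Msi1, Smoc2 and Tnfrsf19 lie above 0 at all 3 levels and Cd44 below 0, with Cd44 at -0.91, -1.45 and -2.09 from centre to row >3.

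Beside these site differences, Paneth cell markers were at 223 to 8447 CPM in sum in SI libraries and at most 12.5 CPM in LI libraries, and 5 of the 7 genes were called higher in the SI at each level. The sums were 1791 to 8447 CPM in the SI libraries of replicates 1 and 2, and without replicate 3 of the SI 7 Paneth cell genes were called at the centre level and 6 at either of the others. Of the absorptive cell genes 2 of 8 were called higher in SI centre cells and 6 of 8 in border and in row >3 cells, or 2, 5 and 6 without SI replicate 3. Of the 26717 genes tested, 317, 308 and 738 were called higher in SI centre, border and row >3 cells, and 215, 160 and 354 lower. Without SI replicate 3, 1180, 968 and 1781 of 26181 were called higher and 1674, 1153 and 1403 lower. No goblet or tuft cell gene was called between the sites in all libraries. Without SI replicate 3, 4 of 7 goblet genes were called lower and 1 higher in SI centre cells, with sums of 674 to 1148 CPM against 6733 to 10690 CPM in the LI, and 3 of 6 tuft genes were called lower. In SI border and in SI row >3 cells 5 of the 6 tuft genes were then called higher. Their part in the site differences of the markers was not tested.

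Whether the fall from centre to row >3 differed between the sites was tested by the interaction of site and level. None of the 10 markers was called by edgeR, as for 0% of all genes, while 4 markers and 6.74% of all genes had an unadjusted p under 0.05 and DESeq2 called none, against 0.560% of all genes. The difference of the log2 fold changes, SI minus LI, had a median of -1.08 over the markers, against 0 over all genes. Cdca7 differed by -1.42 ± 0.55 (edgeR adjusted p = 0.578, 0.00280 with the block, 0.00129 without SI replicate 3, and up to 1 over 20 settings). Rgmb differed by -1.03 ± 0.37 and Tnfrsf19 by -2.53 ± 1.56 (edgeR adjusted p = 0.506 and 0.904), and both were called without SI replicate 3 (adjusted p = 0.00598 and 0.00643, the lowest of 20 settings, with 1 as the highest). The share of all genes called was 2.32% with the block and 3.27% without SI replicate 3. Smoc2 differed by 0.07 ± 1.09, with an interval of -2.30 to 2.44. In the fit without SI replicate 3, 5 of 6 tuft, 4 of 7 goblet, 3 of 5 epithelial and 2 of 8 absorptive genes were called in the other direction. So were 1 of 6 immune and 1 of 6 stromal and endothelial genes. In the same direction as the markers, 5 of 23 other stem cell signature genes were called. None of these was called in all libraries. For the step from centre to border none was called by edgeR, as for 0% of all genes, none had an unadjusted p under 0.05, against 2.65% of all genes, and DESeq2 called none, against 0.00751% of all genes.

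Levels were compared between genes per kilobase of exon. In SI centre cells Slc12a2 had the highest level, 2795 ± 510 normalised counts per kilobase (SD, n = 3), followed by Cdca7 (1408 ± 553) and Sox9 (1258 ± 155), which overlapped. Cd44, Prom1, Smoc2, Rgmb, Msi1, Ascl2 and Tnfrsf19 followed, each overlapping the next, from 795 ± 173 for Cd44 to 147 ± 97.7 for Tnfrsf19. This order depended on replicate 3. In the SI centre libraries of replicates 1 and 2, Cdca7 (1638 to 1808) lay above Sox9 (1102 to 1259) with no overlap, and Smoc2 (763 to 801) lay above Cd44 (690.0 to 701), whose range was inside that of Prom1 (682 to 787). In LI centre cells the order was Slc12a2 (2740 ± 326), Cd44 (1436 ± 89.2), Sox9 (1310 ± 174), Cdca7 (692 ± 65.9), Prom1 (449 ± 32.1), Smoc2 (255 ± 12.5), Rgmb (214 ± 19.4), Ascl2 (180 ± 39.1), Msi1 (68.4 ± 16.9) and Tnfrsf19 (16.8 ± 1.91). Of these neighbours, only Cd44 and Sox9, and Rgmb and Ascl2, overlapped. In row >3 cells Prom1 had moved up to the third place in the SI, at 551 ± 93.8, and held it without replicate 3.

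Of 24 other genes of the Lgr5 stem cell signature, 23 were found and tested. Between centre and row >3 of the SI 18 of the 23 were called lower and none higher, against 5.82% of all genes called lower, with a median log2 fold change of -2.10, near that of the 10 markers. The lowest adjusted p-values were those of Ephb3, a receptor that keeps cells in place along the crypt (-2.27 ± 0.26, edgeR adjusted p = 2.51e-05), and Kcnq1, a potassium channel (-1.95 ± 0.23, adjusted p = 2.65e-05). They were followed by Cdk6, a cell cycle kinase (-1.93 ± 0.23), and Esrrg, a nuclear receptor (-2.22 ± 0.27). In the LI, Ephb3 was the only one called (-1.47 ± 0.25, edgeR adjusted p = 0.0468), against 0.0187% of all genes called lower. In the LI 16 were called with the block and 16 without SI replicate 3, against 2.59 and 1.90% of all genes, and the median was -0.95. Between the sites, 3 of the 23 were called higher in SI centre cells and none lower, against 1.99% of all genes in either direction, with a median of 0.26. In row >3 cells 6 were called lower in the SI, against 1.32% of all genes called lower, and 1 higher, with a median of -0.33. Leaving out SI replicate 3 gave 8 higher and 1 lower in centre cells and 4 higher and 8 lower in row >3 cells, against 10.9 and 12.2% of all genes in either direction. Of those called in centre cells, the secreted glycoprotein Olfm4 had raw counts of 18642 to 101650 in the SI and of 0 to 109 in the LI, and the urea transporter Slc14a1 234 to 1190 and 0 to 21, with at least 1 LI library of each at 0.

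Within each site the markers were set against Lgr5 on the log2 CPM scale, over 9 libraries that share the sort and, in triples, the replicate number. For Ascl2, Pearson's r was 0.97 among SI and 0.96 among LI libraries, for Cdca7 0.97 and 0.98, and for Smoc2 0.96 and 0.99. It was lower for Sox9, at 0.88 and 0.84, and for Tnfrsf19, at 0.86 and 0.59. Over the 6 SI libraries without replicate 3, r was 0.93 for Sox9 and 0.99 for Tnfrsf19. Prom1 had an r of 0.14 in the SI and -0.48 in the LI, and 0.73 over the 6 SI libraries without replicate 3. For Cd44, r was 0.64 among SI libraries, 0.98 among LI libraries and 0.97 over those 6 libraries. Since the 3 levels were sorted on the Lgr5 reporter, these values describe the order of the groups. Among 12301 genes, the patterns most like that of Ascl2, by the lower of the r of both sites, were those of Bex1 (0.97), Angpt2 (0.97) and Cnn3 (0.96). Those most like Smoc2 were Dock11 (0.99), Amica1 (0.98) and Clca4 (0.97).

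**Figure D4:**
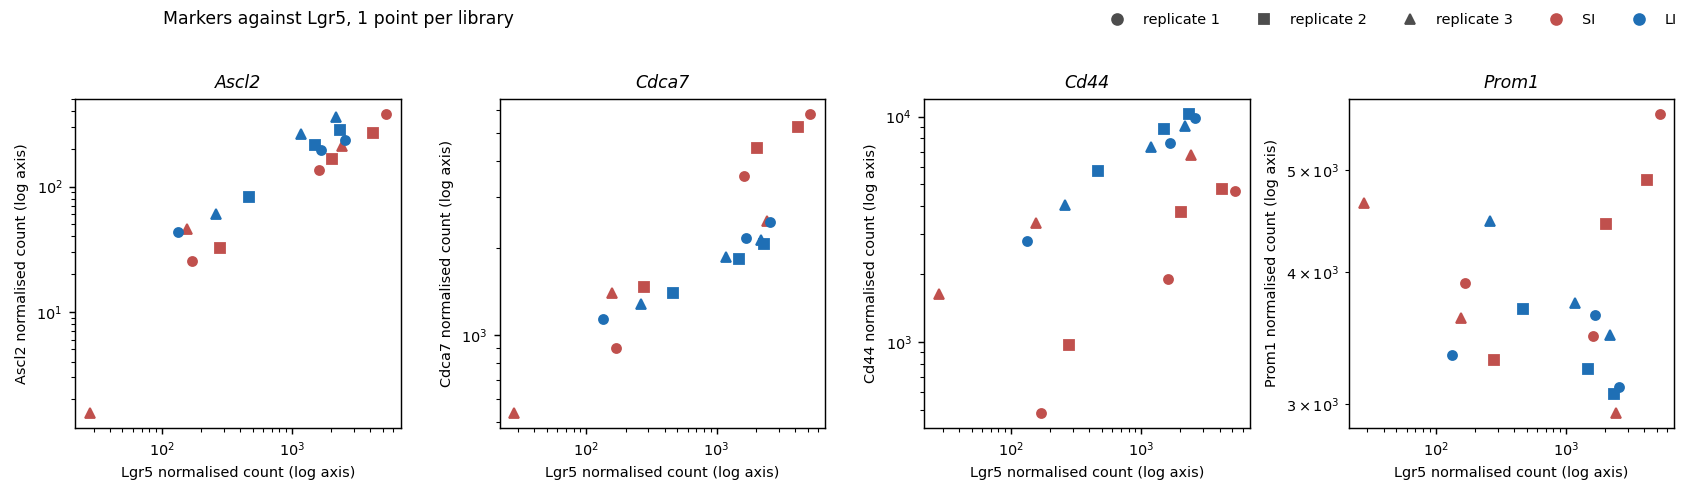
Normalised counts (log axes) of Ascl2, Cdca7, Cd44 and Prom1 against those of Lgr5, with 1 point per library, the SI in red and the LI in blue. The r values given here were taken on log2 CPM, which is not drawn. Ascl2 and Cdca7 rise with Lgr5 at both sites (r of 0.96 to 0.98), Cd44 does so in the LI with SI points lower (r of 0.98 and 0.64), and Prom1 shows no such slope.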

How the data were processed

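RNA of sorted cells (270 pg or more), with 3 biological replicates in each of 6 groups, was turned into libraries by SMART-Seq chemistry that keeps the strand. After trimming and alignment to mm10 with STAR, the authors deposited raw counts per gene. They also deposited a normalised table, whose signal is the count divided by 1 size factor per library, for 24814 genes. The sources used here give neither the annotation release nor the strand setting of the counting. Per-sample values in the text are from the deposited normalised counts.

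The raw counts were tested in edgeR 4.0.16 under R 4.3.3 (TMM factors, robust quasi-likelihood F test, genes with a mean count above 0, 1 fit of 6 groups with 12 residual degrees of freedom, Benjamini-Hochberg adjustment, threshold 0.05). The SE is the fold change divided by the root of F. CPM values, except that of Gm16401, are raw counts scaled to a common total with TMM factors. The alternatives were DESeq2 1.42.0, other size factors and filters, a replicate block, only the groups compared, and leaving out libraries. The block was set separately in each site for comparisons within a site and for the interaction. For SI against LI at one level it was shared by both sites. The fit was tested on simulated data with 200 changed genes. All 10 markers, Lgr5, and the 4 genes of the other signature with the lowest adjusted p per comparison could be named, and the 3 genes most like a marker in pattern. The members and lists were chosen with earlier results of these data known.

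Same-numbered libraries deviated together from their group means over 10476 genes. The correlation was 0.168 to 0.641 in the 9 pairs within the SI and 0.290 to 0.676 in the 9 within the LI, while between sites it was -0.188 to 0.361 in 27 pairs. Libraries of different number had -0.636 to 0.481 within the SI, which overlaps the range of the same number, -0.594 to 0.176 within the LI and -0.252 to 0.266 between sites. With every same-numbered pair within a site above 0.1, the numbers were taken to pair libraries within a site. The pairing of the sites is uncertain, and the block in the comparisons of SI with LI assumes it. Depth was 8312093 to 31940965 counts per library.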

Additional observations from a re-analysis of the deposited data

How the results depend on the processing

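The number of markers called depended on the test, the size factors and the gene filter, the replicate block, SI replicate 3 and the libraries in the fit. A fit of only the groups compared also tested fewer genes. The share of all genes called in either direction follows each count in brackets. For SI border against centre it was 4 (2.32%) with the replicate block and 0 to 1 (0 to 1.21%) when single replicates were left out. For LI row >3 against centre it was 2 (0.349%) with DESeq2, 8 (2.59%) with the block, 6 (1.03%) with only the groups compared and 6 (1.90%) without SI replicate 3. For SI row >3 against border it was 6 (4.90%) with DESeq2, 5 (4.48%) with filterByExpr, 9 (9.78%) with the block, 0 (0%) with only the groups compared, 8 (7.23%) without SI replicate 3 and 0 to 7 (0.0113 to 5.71%) when single replicates were left out. For LI row >3 against border it was 1 (0.0674%) with the block, 1 (0.0255%) with only the groups compared and 2 (0.0802%) without SI replicate 3. Between sites it was, in centre cells, 2 (4.66%) with DESeq2, 1 (5.61%) with the block, 2 (2.61%) with only the groups compared, 6 (10.9%) without SI replicate 3 and 0 to 2 (0.679 to 4.66%) with single replicates left out. In border cells it was 2 (4.55%) with DESeq2, 1 (1.59%) with library size only, 1 (4.24%) with filterByExpr, 2 (4.27%) with the block, 1 (1.16%) with only the groups compared, 5 (8.10%) without SI replicate 3 and 0 to 2 (0.519 to 3.24%) with single replicates left out. In row >3 cells it was 3 (6.36%) with DESeq2, 2 (6.89%) with the block, 0 (3.83%) with only the groups compared and 3 (12.2%) without SI replicate 3. For the interaction of site with row >3 against centre it was 1 (2.32%) with the block and 3 (3.27%) without SI replicate 3. The markers called between SI row >3 and centre numbered 6 to 10 (6.80 to 25.8%) in every setting.

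Log2 fold changes that changed sign were mostly near 0. Prom1 ranged from -0.41 to 0.018 in SI row >3 against centre with single replicates left out. In SI row >3 against border Prom1 was -0.13 with library size only, -0.10 without SI replicate 3 and -0.073 to 0.17 with single replicates left out, and in the LI -0.013 to 0.22. Between sites in centre cells, Ascl2 was 0.12 without SI replicate 3 and -0.34 to 0.10 with single replicates left out, and Sox9 was -0.20 to 0.010. Slc12a2 was 0.029 with DESeq2, 0.029 with RLE factors, 0.0082 with library size only, 0.0084 with only the groups compared, 0.14 without SI replicate 3 and -0.15 to 0.12 with single replicates left out. In border cells Sox9 was 0.0091 and Lgr5 0.30 without SI replicate 3. With single replicates left out, Lgr5 was -0.84 to 0.25, Rgmb -0.20 to 0.49 and Prom1 -0.055 to 0.14. In row >3 cells Tnfrsf19 was -0.055 to 1.21 with single replicates left out. Prom1 was 0.043 with DESeq2, 0.043 with RLE factors, 0.027 with filterByExpr, 0.030 with only the groups compared and -0.14 to 0.13 with single replicates left out. The interaction of Smoc2 was -0.25 with the block and -0.45 to 0.55 with single replicates left out. The causes were not tested. Over all genes, the number called between SI row >3 and centre ranged from 1973 to 6103 over the alternatives (3518 as reported), and between LI row >3 and centre from 0 to 692.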
